A study of Mus musculus with 12 samples.

Results

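Synaptic vesicle release genes are the 40 genes whose proteins load, dock, prime and fuse transmitter vesicles at presynaptic terminals. Members were taken by gene symbol from the annotation of the arrays, and the brightest probe stood for each gene. All 40 were measured, among 24089 genes tested, and each probe used lay well above background on all 12 arrays. The arrays held hippocampal RNA from 12 adult male wild-type mice kept in constant darkness, 1 mouse per 1-colour array. There were 3 mice at each circadian time: CT0 after 36 hours of darkness, CT6 after 42 hours, CT12 after 48 hours and CT18 after 30 hours. CT0 is the start of the subjective day and CT12 the start of the subjective night. The labels name no drug and no allele beside wild type. The design asked which hippocampal genes follow the circadian clock without light cues.

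A vesicle is filled by a transporter for its transmitter, is held near the active zone by RAB3, RIM and the large scaffolds Bassoon and Piccolo, and is primed by a Munc13 protein. Fusion is driven by the SNARE proteins VAMP on the vesicle and syntaxin and SNAP-25 on the plasma membrane. Complexin holds the assembled SNAREs, and synaptotagmin triggers fusion when it binds calcium. NSF and its adaptors then take the SNAREs apart. Most of these proteins have paralogs whose use differs between brain regions. In the rodent forebrain synaptotagmin 1, VAMP2, Munc13-1 and the glutamate transporter VGLUT1 are the common forms, while synaptotagmin 2, VAMP1, Munc13-3 and VGLUT2 are better known from the cerebellum, brainstem or thalamus.

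Values are log2 intensities relative to the 75th percentile of the array, called levels below, and a level is comparable between arrays for 1 probe but not between probes. The share of spots well above background, of 59305 that were not controls, ran from 59.3% to 77.1% over the arrays. CT12 mouse 11 stood apart, with correlations across genes of 0.945 to 0.965 with the other libraries, against at least 0.984 among the remaining 11. Its levels go against its tissue label: the forebrain excitatory neuron list (9 genes, Slc17a7 among them) had a median of -4.18 relative to each gene's mean over the other 11 libraries, with 8 genes below the range of those libraries. Tbr1, a transcription factor of forebrain excitatory neurons, had a level of -3.49 in it, against 2.38 to 3.58 in the other libraries. All 15 cerebellar neuron genes tested, of 20 listed, were above that range in it (median 3.43). The others of that list were too dim to be tested. Of these, Gabra6, a receptor subunit of cerebellar granule cells, Cbln3 and Ppp1r17 were well above background in that library and in none of the others. En1 and Barhl2 were well above background in no library, and in mouse 11 both lay within the range of the others. Most counts of members and F tests that use CT12 are therefore given with and without the library labelled CT12 mouse 11. Also apart were CT12 mouse 10, where the thalamus list reached 1.13, and CT0 mouse 1, whose local background was 100 units, against 25 to 37 on the other arrays.

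Across the 4 times, 1 of the 40 members passed limma's moderated F test, with p values adjusted by the method of Benjamini and Hochberg over all genes and a threshold of 0.05, beside 35 of all 24089 genes (0.145%). That gene was Doc2b. At an unadjusted p under 0.05 there were 9 members, 22.5% of the 40, beside 10.6% of all genes: Syn1, Syn3, Syt7, Doc2b, Vamp1, Rims3, Unc13c, Bsn and Slc17a6. Without the library labelled CT12 mouse 11 the adjusted test called 0 members, beside 0.245% of all genes, and 7 had an unadjusted p under 0.05, beside 12.1%. Without CT12 mouse 12 the unadjusted count was 26, beside 21%. The 24-hour cosine called 0 members, beside 0.0664% of all genes, with 3 at an unadjusted p under 0.05 (Syt7, Doc2b and Unc13c), beside 9.71% of all genes. Without the library labelled CT12 mouse 11 it called 0, beside 0.274%, with 2 at an unadjusted p under 0.05 (Doc2a and Doc2b), beside 12.2%. The unadjusted count of the cosine was 1 without CT18 mouse 14 or 15, and 5 without CT12 mouse 12. Those last counts have no share beside them and cannot be set against all genes. Syp, Syt1, Snap25, Vamp2, Nsf and Slc17a7, core genes of release at forebrain synapses, had unadjusted F test p values above 0.05 and were not called.

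Doc2b, a high-affinity calcium sensor linked to spontaneous and delayed release, had levels of 2.65, 2.67 and 2.61 in the 3 CT0 mice. They were 2.39, 2.16 and 2.12 at CT6, 1.93, 2.03 and 2.19 at CT12, and 2.78, 2.97 and 3.14 at CT18. All 3 CT18 mice were above all others, all 3 CT0 mice were above those of CT6 and CT12, and CT6 and CT12 overlapped. The means were 2.64 ± 0.03 at CT0, 2.22 ± 0.14 at CT6, 2.05 ± 0.13 at CT12 and 2.96 ± 0.18 at CT18 (SD, n = 3 mice each). In order of hours in darkness they fell at each step, from 2.96 at 30 hours (CT18) to 2.64 at 36, 2.22 at 42 and 2.05 at 48. Each time had its own hours in darkness, so an effect of circadian time apart from these hours was not tested. The moderated F test gave an adjusted p of 0.0466 in limma (unadjusted p = 6.77e-05), and 0.0595 without the library labelled CT12 mouse 11, whose own level of 2.03 lay between those of the other CT12 mice. With slide as a block the call was lost as well (limma adjusted p = 0.0996). The stretch of sequence that reports this gene, the first 30 of the probe's 60 bases, is shown because all Doc2b values rest on this 1 probe.
Doc2b probe, mm9 chr11:75582645-75582704 (minus strand): cacgaaacaatttttgtaatcttgtctgac

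Doc2b was higher at CT18 than at CT12 by 0.91 ± 0.12 (SE, n = 3 mice per time, 1.88-fold, limma adjusted p = 0.0228). It was the 1 member of 40 called in that pair, beside 91 of all genes (0.378%). Within the 3 slides, each of which held 1 mouse per time, the difference was 0.94, 0.94 and 0.85. Without the library labelled CT12 mouse 11 it was 0.90 (limma adjusted p = 0.0419), again the 1 member called, beside 0.407% of all genes. Leaving out 1 library at a time kept the call in 4 of 12 repeats, with differences of 0.83 to 1.01 and adjusted p values from limma of 0.0113 to 0.16. The F test kept its call in 1 of those 12 repeats (adjusted p from 0.0354 to 0.181). Between CT18 and CT6 Doc2b differed by 0.74 ± 0.12 (limma adjusted p = 0.0545), and without the library labelled CT12 mouse 11 it was the 1 member called there (0.0300), beside 1.16% of all genes. The fitted 24-hour cosine peaked at 20.6 h and did not pass (limma adjusted p = 0.112, and 0.0744 without the library labelled CT12 mouse 11).

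Markers of dentate granule cells, the neurons of the hippocampal input region, were ordered over the times much as Doc2b was. Relative to each gene's mean over the libraries other than CT12 mouse 11, the median of the 8 measured markers was 0.11, 0.15 and 0.05 in the CT0 mice and -0.01, -0.17 and -0.47 in the CT6 mice. At CT12 it was -0.16, -1.44 and -0.32, the lowest of these being mouse 11, and at CT18 it was 0.23, 0.21 and 0.47. Of these markers 0 of 8 were called by the F test, with 3 at an unadjusted p under 0.05, beside 10.6% of all genes, and 6 without the library labelled CT12 mouse 11, beside 12.1%. Prox1, which defines the granule cell fate, had means of -0.85 at CT0, -1.19 at CT6, -1.38 at CT12 and -0.63 at CT18. The part of granule cells in the Doc2b result was not tested, and in tissue RNA fewer cells of a type and less RNA per cell cannot be told apart.

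**Figure D1:**
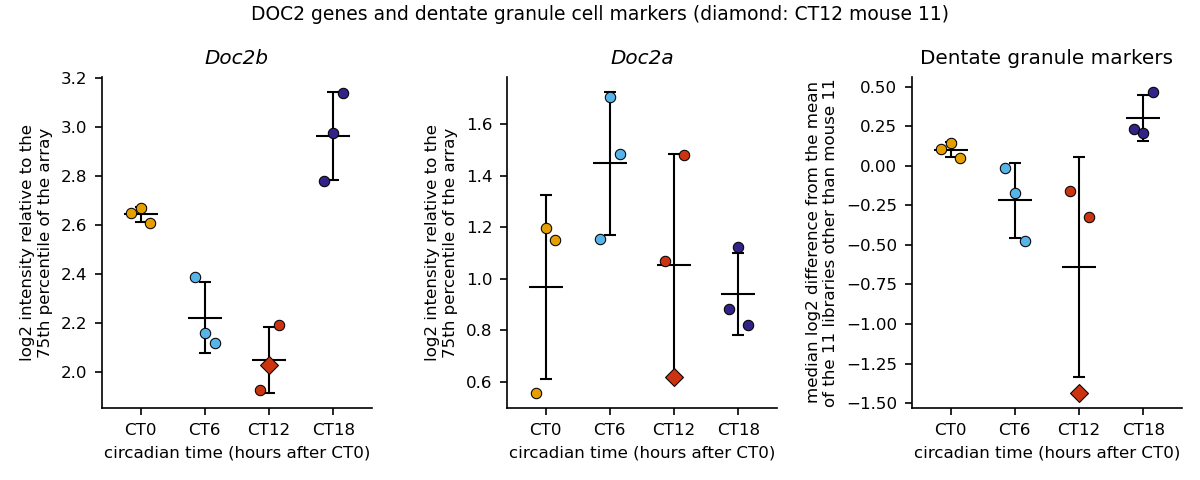
Levels of Doc2b (left) and Doc2a (middle) in log2 units relative to the array's 75th percentile, and the median deviation of the 8 dentate granule cell markers in log2 units (right), at each circadian time. Each point is 1 mouse, the diamond is CT12 mouse 11, and the bars are the mean and SD of 3 mice; Doc2b was highest in the 3 CT18 mice (2.78, 2.97 and 3.14).

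Doc2a, the paralog of Doc2b, had its highest mean at CT6. Its levels were 0.56, 1.20 and 1.15 at CT0, 1.16, 1.71 and 1.48 at CT6, 1.07, 0.62 and 1.48 at CT12, and 0.88, 1.12 and 0.82 at CT18. The mean was 1.45 ± 0.28 at CT6 and lowest at CT18 (0.94 ± 0.16; SD, n = 3 mice each). All CT6 levels were above those of CT18, and every other pair of times overlapped. The F test did not pass (adjusted p = 0.642 in limma, and 0.55 without the library labelled CT12 mouse 11). Whether the genes differ in their time course was not tested. The 2 probes share no run of bases longer than 5. Neither was compared with the whole transcript of the other gene, so binding of its RNA was not tested.

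The other members with the smallest F test p values did not pass after adjustment. Bsn, which encodes the scaffold Bassoon, had levels of 4.14, 4.36 and 4.12 at CT0, 4.26, 4.42 and 4.25 at CT6, 3.73, 3.42 and 3.99 at CT12, and 4.13, 4.33 and 4.41 at CT18 (limma adjusted p = 0.28). All 3 CT12 mice were below the other 9, mouse 11 lowest, and without mouse 11 the adjusted p was 0.322. Syt7, a slow calcium sensor of delayed release, had 0.10, 0.48 and 0.40 at CT0, 0.25, 0.25 and 0.13 at CT6, 0.12, -0.16 and -0.06 at CT12, and 0.57, 0.43 and 0.40 at CT18 (0.331). The CT18 levels of Syt7 lay above all CT6 and CT12 levels and overlapped those of CT0, and without mouse 11 its adjusted p was 0.363. Syn1, a synapsin that tethers vesicles to each other, had 5.82, 6.13 and 5.89 at CT0, 6.09, 6.19 and 6.01 at CT6, 5.76, 5.15 and 5.73 at CT12, and 5.93, 5.94 and 5.86 at CT18 (0.424). Here too the 3 CT12 mice were below the other 9, and without mouse 11 the adjusted p was 0.411.

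In 4 members with small F test p values CT12 was high rather than low, and mouse 11 held the highest of all 12 levels. Unc13c, which encodes Munc13-3, had -1.24, -0.34 and -0.06 at CT0, -0.41, -0.13 and -0.29 at CT6, 0.64, 2.65 and 0.33 at CT12, and -0.46, -0.40 and -1.07 at CT18 (limma adjusted p = 0.379). Vamp1 had 2.43, 2.90 and 2.89 at CT0, 2.89, 2.75 and 2.62 at CT6, 3.61, 5.32 and 3.17 at CT12, and 2.82, 2.99 and 2.73 at CT18 (0.441). For both genes the 3 CT12 mice were above the other 9, and without mouse 11 the adjusted p values were 0.346 and 0.301. Slc17a6, which encodes VGLUT2, had -0.28, 0.38 and 0.61 at CT0, 0.18, 0.33 and 0.20 at CT6, 2.03, 2.31 and 0.44 at CT12, and 0.50, 0.35 and -0.83 at CT18 (0.421). Without mouse 11 its adjusted p was 0.632. Mouse 12 of CT12 lay within the range of the other times, and the thalamus list, which holds Slc17a6, stood at 1.13 in mouse 10 and 0.53 in mouse 11, against -0.34 to 0.02 in the other 10 libraries. Rims3, which encodes a short RIM protein, had -4.35, -3.92 and -2.83 at CT0, -3.61, -3.63 and -3.81 at CT6, -2.84, -2.13 and -3.32 at CT12, and -3.83, -4.14 and -4.18 at CT18 (0.424, and 0.603 without mouse 11), with CT0 and CT12 overlapping. The part of thalamic or cerebellar RNA in these values was not tested.

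In the 6 pairs of times the members gave few calls. Between CT12 and CT0 limma called 0 members, beside 13 of all genes (0.054%), with 15 members at an unadjusted p under 0.05, beside 11.7% of all genes. Of these 15, 7 had the higher mean at CT12 (Syt2, Vamp1, Rims2, Rims3, Unc13c, Slc17a6 and Slc32a1), beside 4.61% of all genes, and 8 the lower one (Syn1, Syn2, Syn3, Syt7, Doc2b, Unc13a, Unc13b and Bsn), beside 7.04%. This unadjusted count was 8 without the library labelled CT12 mouse 11 (2 higher and 6 lower), beside 8.24%, 26 without CT12 mouse 12, beside 23.7%, and 8 and 9 without CT0 mouse 1 and CT0 mouse 2. Between CT18 and CT6 it called 0, beside 0.137% of all genes, and Doc2b was the 1 member at an unadjusted p under 0.05, beside 8.29%. Between CT6 and CT0, and between CT18 and CT0, limma called 0 members and 0% of all genes, with Doc2b again the 1 member at an unadjusted p under 0.05 in each, beside 2.41% and 4% of all genes. In these 3 pairs the unadjusted count lay between 0 and 3 when 1 library was left out. Between CT12 and CT6 it called 0, beside 0.0208%, with 16 members at an unadjusted p under 0.05, beside 11.9%. That count was 9 without the library labelled CT12 mouse 11, beside 7.87%, 29 without CT12 mouse 12, beside 26.1%, and 8 without CT6 mouse 6. Between CT18 and CT12, 15 members had an unadjusted p under 0.05, beside 16.6% of all genes. There were 9 without the library labelled CT12 mouse 11, beside 13.4%, 25 without CT12 mouse 12, beside 28.4%, and 6 without CT18 mouse 16. Counts without 1 library that have no share beside them cannot be set against all genes.

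The calls between CT18 and CT12 rested on which CT12 mice entered. Without CT12 mouse 12, the CT12 mouse whose members stood highest relative to their means (median 0.08, against -0.21 in mouse 10 and -0.46 in mouse 11), limma called 9 members, beside 5.16% of all genes. Syn2, Sv2b, Doc2b, Bsn, Pclo and Slc17a7 were higher at CT18, beside 2.7% of all genes, and Rims2, Unc13c and Slc17a6 lower, beside 2.45%. That fit sets CT18 against the CT12 mice 10 and 11 alone, the libraries with the highest thalamus medians (1.13 and 0.53). Mouse 11 also held the raised cerebellar genes, and in it 3 of the 10 thalamus genes were above the other 11 libraries and 1 below. Without CT12 mouse 10 limma called 0 members, beside 0.22% of all genes, with 16 at an unadjusted p under 0.05, beside 19.4%.

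Most members had slightly higher means at CT6 than at the other times. Between CT6 and CT0 the median difference of the 40 members was 0.12, with 36 above 0, beside a median of 0.01 and 51.9% above 0 over all genes. Without CT0 mouse 1 these values were 0.05 and 30 of 40, beside -0.01 and 48.2%. In that mouse 39 of 40 members were below their mean over the 11 libraries other than CT12 mouse 11 (median -0.19). Between CT18 and CT6 the members' median was -0.14, with 35 below 0, beside -0.02 and 54.8% over all genes. It was -0.09, with 29 below 0, without CT18 mouse 14. Between CT12 and CT6 the median was -0.26, with 27 below 0, beside -0.03 and 55.1% over all genes. Without the library labelled CT12 mouse 11 it was -0.15, with 30 below 0, beside -0.01 and 52.3%. Doc2b was among the 4 members below 0 between CT6 and CT0 (-0.42) and the 5 above 0 between CT18 and CT6 (0.74). It lay outside the range of the other 39 members in both pairs. Syt7 went the same way by less, with -0.12 and 0.25. The median of the members was -0.13 between CT12 and CT0 and 0.16 between CT18 and CT12, beside -0.03 and 0.01 over all genes. Without the library labelled CT12 mouse 11 they were -0.03 and 0.04. With median centring, which raised the median of all genes to 0.19 between CT12 and CT0 and 0.18 between CT6 and CT0, the members' medians were 0.09 and 0.29. Relative to the median of all genes the members stood at -0.10 between CT12 and CT0 under both scalings, with 16 of 40 above it.

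**Figure D2:**
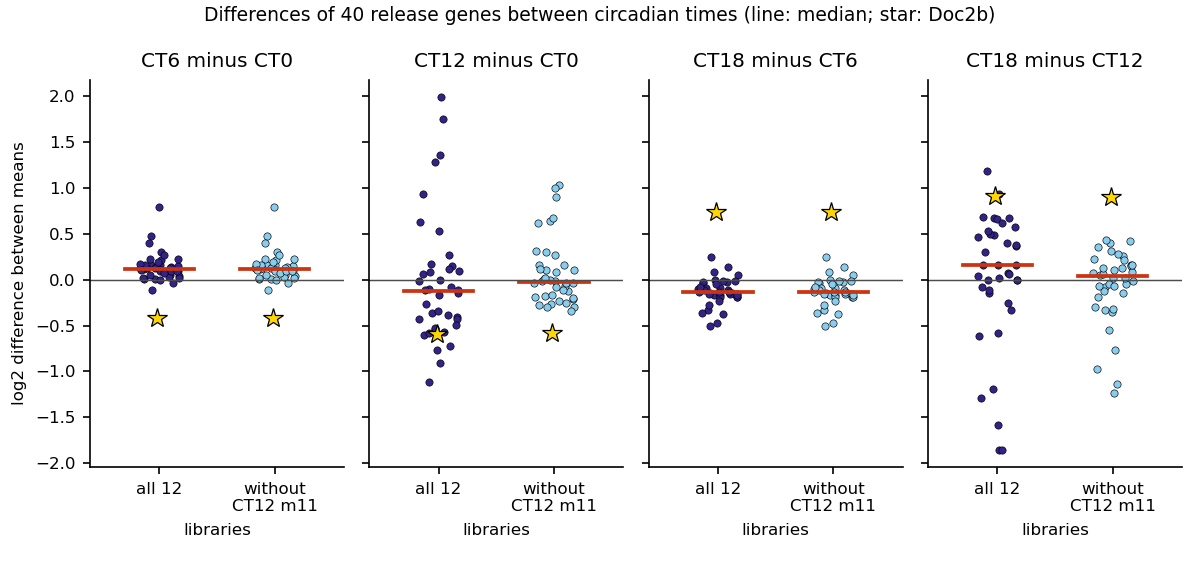
Log2 difference between the means of 2 circadian times for each of the 40 members, with all 12 libraries (dark) and without CT12 mouse 11 (light), for 4 of the 6 pairs; the red line is the median and the star is Doc2b. The spread of the CT12 pairs narrows without that library, and Doc2b stays apart at 0.74 between CT18 and CT6.

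Over the 11 libraries other than CT12 mouse 11 the levels of the members varied about as much as those of all genes. The median SD of a member was 0.19, beside 0.18 over all genes. Rab3a, a small GTPase of vesicles (SD 0.09), Vamp2 (0.09), Napa (0.10) and Syt3 (0.11) varied least, and Slc17a6 (0.69), Cplx3 (0.61), Syt2 (0.58) and Unc13c (0.54) varied most. For Cplx3, a complexin best known from ribbon synapses of the retina, the levels were -2.13, -0.83 and -0.54 at CT0, -0.83, -0.10 and -0.19 at CT6, -0.95, -3.53 and -0.03 at CT12, and -0.71, -0.48 and -1.34 at CT18. Its lowest levels outside mouse 11 were those of CT0 mouse 1 and CT18 mouse 16. The F test did not pass (limma adjusted p = 0.853, and 0.793 without mouse 11).

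In the library labelled CT12 mouse 11 the paralogs of several release gene families went opposite ways. Its level was below the lowest of the other 11 libraries for 22 of 40 members (55%), beside 31.9% of all genes, and above the highest for 10 (25%), beside 23.9%. It was at least 2-fold below the mean of the others for 10 members and at least 2-fold above it for 7, beside 9.67% and 5.84% of all genes. The median difference of the members was -0.46, beside -0.08 over all genes. This is 1 library, so the differences have no replicate and no test. Members were spread from -3.48 for Stx1a to 3.88 for Syt2.

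**Figure D3:**
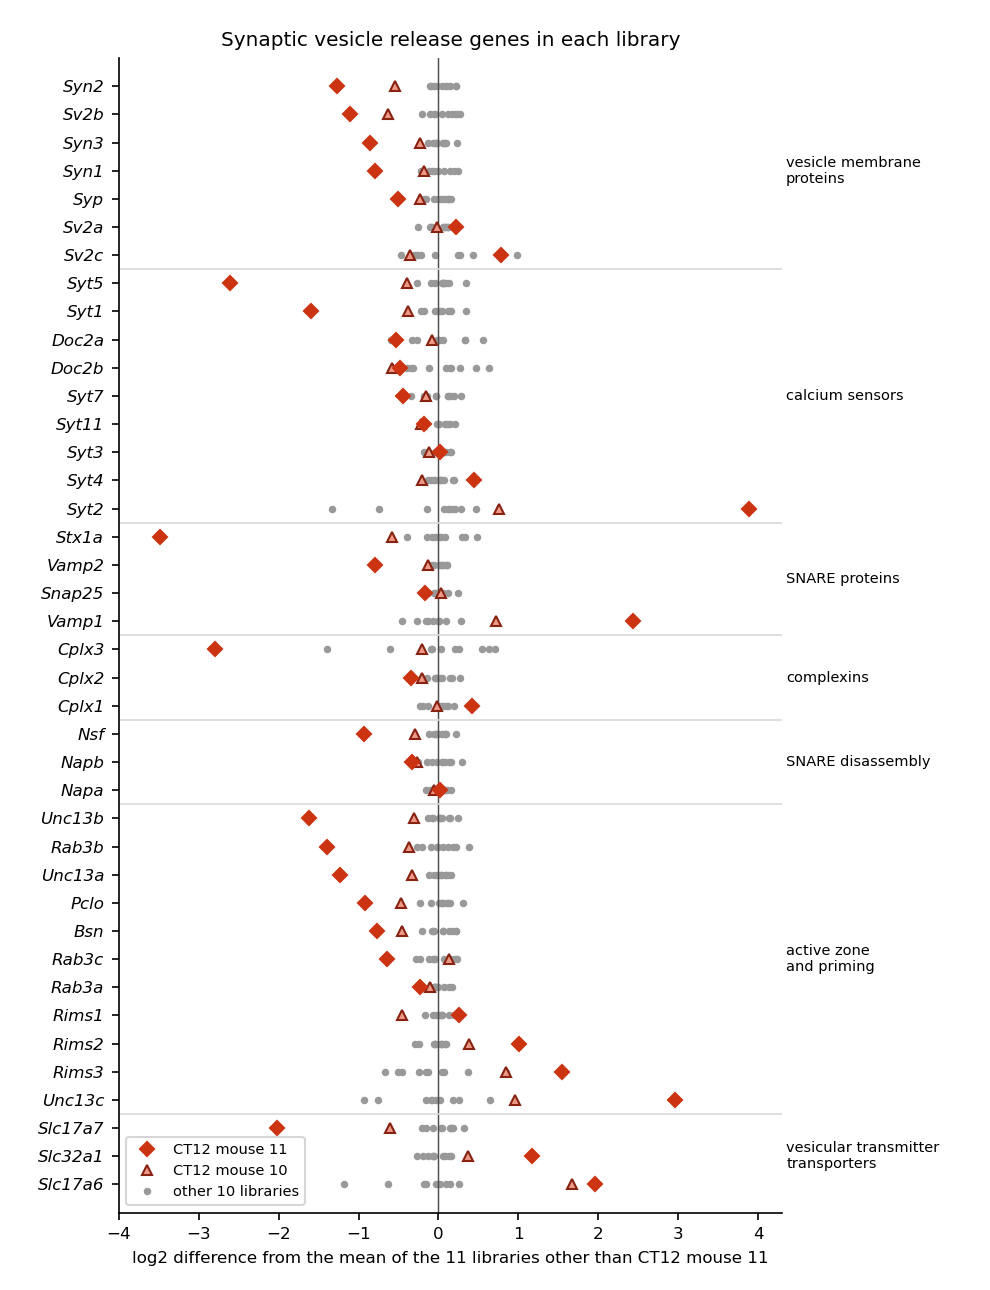
Log2 difference of each member from its mean over the 11 libraries other than CT12 mouse 11, by role. Diamonds are CT12 mouse 11, triangles CT12 mouse 10 and grey points the other 10 libraries. Mouse 11 lies below all others for 22 members and above all for 10, beside 31.9% and 23.9% of all genes. Its members run from -3.48 (Stx1a) to 3.88 (Syt2).

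Among the vesicle membrane proteins 5 of 7 were below the other libraries in mouse 11, beside 31.9% of all genes. Syn2 had a level of 5.19 in mouse 11, against 5.93 to 6.68 in the other 11 libraries (median 6.51), which is 2.41-fold below their mean. By time Syn2 had 6.36, 6.61 and 6.41 at CT0, 6.55, 6.68 and 6.51 at CT6, 5.93, 5.19 and 6.44 at CT12, and 6.37, 6.57 and 6.68 at CT18. Sv2b, a glycoprotein of the vesicle membrane, had 2.21, against 2.70 to 3.59, and Syn1, Syn3 and Syp (synaptophysin) were also below. Sv2a, the binding partner of the antiepileptic levetiracetam, was slightly above, at 3.71, against 3.24 to 3.61. Sv2c lay within the range at -3.99, against -5.23 to -3.78.

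Among the calcium sensors 2 of 9 were above the other libraries in mouse 11 and 3 below, near the 23.9% and 31.9% of all genes. Syt2 had a level of 0.41 in mouse 11, against -4.80 to -2.71 in the other 11 libraries (median -3.34), 14.7-fold above their mean, and 6.43-fold with normexp background correction. Its levels were -4.80, -3.19 and -3.27 at CT0, -3.34, -3.39 and -3.61 at CT6, -2.71, 0.41 and -2.99 at CT12, and -3.34, -3.30 and -4.21 at CT18. Syt1, the main sensor of fast release in the forebrain, had 5.36 in mouse 11, against 6.57 to 7.30 (median 6.98), 3.03-fold below the mean. By time Syt1 had 6.74, 7.08 and 6.98 at CT0, 6.96, 7.11 and 7.11 at CT6, 6.57, 5.36 and 7.30 at CT12, and 6.77, 6.91 and 7.00 at CT18. Syt5 had 2.71, against 4.93 to 5.67 (median 5.37), 6.11-fold below. By time Syt5 had 5.05, 5.38 and 5.37 at CT0, 5.37, 5.67 and 5.41 at CT6, 4.93, 2.71 and 5.45 at CT12, and 5.23, 5.38 and 5.27 at CT18. Mouse 11 lay outside the range of the other 11 libraries for all 3 genes, which were chosen for a large difference in it. Syt4, an atypical synaptotagmin, was above the others (2.04, against 1.39 to 1.79) and Syt7 below (-0.16, against -0.06 to 0.57). Syt3, Syt11, Doc2a and Doc2b lay within the range of the other libraries.

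Of the SNARE proteins, Vamp1 had 5.32 in mouse 11, against 2.43 to 3.61 in the other 11 libraries (median 2.89), 5.40-fold above their mean. Vamp2 had 4.66, against 5.32 to 5.56 (median 5.48), 1.74-fold below. Stx1a, which encodes syntaxin 1A, had the most negative difference of any member, with -0.75 in mouse 11, against 2.16 to 3.22 (median 2.74), 11.2-fold below. By time Stx1a had 2.34, 2.65 and 2.82 at CT0, 2.77, 3.22 and 3.03 at CT6, 2.16, -0.75 and 3.06 at CT12, and 2.69, 2.74 and 2.59 at CT18. Snap25 differed by -0.17 and lay within the range. Cplx1 was above (6.01, against 5.37 to 5.78), Cplx2 below (6.34, against 6.48 to 6.95) and Cplx3 below (-3.53, against -2.13 to -0.03, 6.94-fold below the mean, and 3.76-fold with normexp). Of the genes that take SNAREs apart, Nsf (-0.93) and Napb (-0.33) were below the other libraries and Napa (0.01) was within.

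At the active zone the Munc13 genes parted. Unc13c had 2.65 in mouse 11, against -1.24 to 0.64 in the other 11 libraries (median -0.34), 7.78-fold above their mean. Unc13a, which encodes Munc13-1, had -1.99, against -1.08 to -0.60 (median -0.72), 2.36-fold below. By time Unc13a had -0.80, -0.67 and -0.76 at CT0, -0.60, -0.66 and -0.76 at CT6, -1.08, -1.99 and -0.86 at CT12, and -0.72, -0.72 and -0.63 at CT18. Unc13b, which encodes Munc13-2, had 1.41, against 2.72 to 3.27 (median 3.05), 3.07-fold below. At the 4 times it had 2.96, 3.17 and 3.06 at CT0, 3.04, 3.27 and 3.17 at CT6, 2.72, 1.41 and 2.90 at CT12, and 2.95, 3.07 and 3.05 at CT18. Mouse 11 was the lowest of the 12 for both genes. The RIM genes Rims2 (0.41, against -0.88 to -0.20) and Rims3 (-2.13, against -4.35 to -2.83, 2.92-fold above the mean, and 1.63-fold with normexp) were above, and Rims1 was within. Rab3b had 2.48, against 3.51 to 4.26 (median 3.87), 2.64-fold below. By time Rab3b had 3.6, 4.10 and 3.87 at CT0, 3.94, 4.26 and 4.06 at CT6, 3.51, 2.48 and 3.86 at CT12, and 3.78, 4.0 and 3.67 at CT18. Rab3a and Rab3c were below by less (-0.23 and -0.65 from the mean). Bsn and Pclo, which encodes Piccolo, were 1.71-fold and 1.89-fold below.

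The transmitter transporters for glutamate went opposite ways. Slc17a7, which encodes VGLUT1, had 0.85 in mouse 11, against 2.27 to 3.19 in the other 11 libraries (median 2.93), 4.07-fold below their mean. By time Slc17a7 had 2.72, 2.91 and 2.81 at CT0, 2.93, 3.03 and 3.06 at CT6, 2.27, 0.85 and 3.03 at CT12, and 2.67, 3.02 and 3.19 at CT18. Slc17a6 had 2.31, against -0.83 to 2.03 (median 0.35), 3.89-fold above. Slc32a1, the carrier of GABA and glycine VGAT, had 6.45, against 5.01 to 5.65 (median 5.23), 2.25-fold above. By time Slc32a1 had 5.01, 5.41 and 5.15 at CT0, 5.23, 5.44 and 5.21 at CT6, 5.65, 6.45 and 5.36 at CT12, and 5.08, 5.34 and 5.21 at CT18. Mouse 11 was the lowest of the 12 for Slc17a7 and the highest for Slc17a6 and Slc32a1. The nearest library to mouse 11 for Slc17a6 was CT12 mouse 10.

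**Figure D4:**
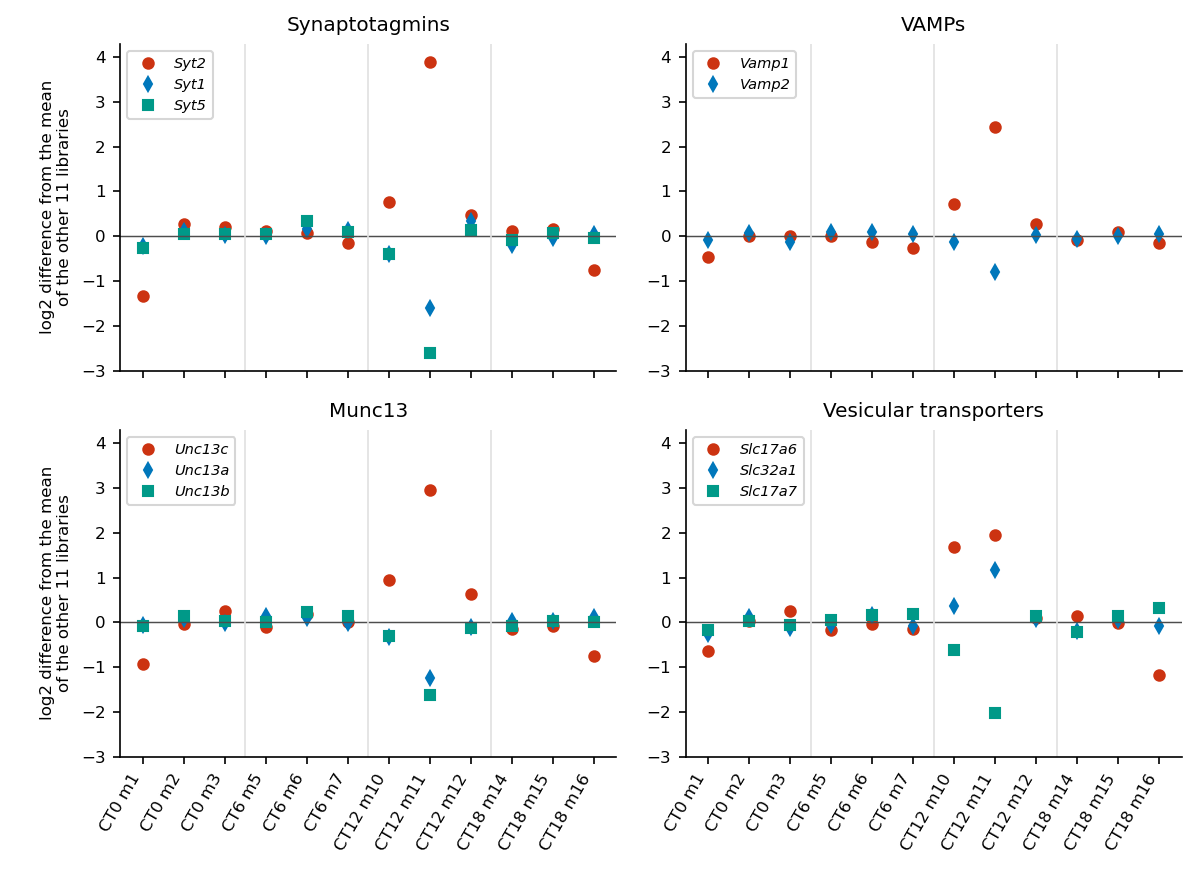
Log2 difference from each gene's mean over the 11 libraries other than CT12 mouse 11 in 4 families, with 1 point per gene and library in order of circadian time. In CT12 mouse 11 Syt2, Vamp1, Unc13c, Slc17a6 and Slc32a1 lie above the other libraries while Syt1, Syt5, Vamp2, Unc13a, Unc13b and Slc17a7 lie below.

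CT12 mouse 10 was set against 10 libraries that also served for mouse 11, so the counts of both are not independent. Mouse 10 was the lowest of the 11 libraries other than CT12 mouse 11 for 22 members, beside 18.9% of all genes, and the highest for 6, beside 7.64%. Those below included Syp, Syn2, Sv2b, Syt1, Syt5, Stx1a and Slc17a7, and the 6 above were Syt2, Vamp1, Rims2, Unc13c, Slc17a6 and Slc32a1. The forebrain excitatory list stood at -0.59 in mouse 10, against -0.08 to 0.23 in the other 10 libraries, and the cerebellar list at 0.12, within their range of -0.08 to 0.13. The choroid plexus list, genes of the tissue in the ventricles that makes cerebrospinal fluid, was at 3.65 in it, 2.01 in mouse 11, and also high in CT0 mouse 1 (4.05), CT6 mouse 7 (2.92) and CT18 mouse 14 (2.85). The part of other tissues in the members' levels was not tested.

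The probes of the paralogs that parted share only short runs of bases. Probes were compared with each other and not with the paralog's whole transcript, so binding of a paralog's RNA was not tested. Between the probes of Syt2 and Syt1 the longest shared run was 6 bases of 60, between those of Vamp1 and Vamp2 5, and between those of Unc13c and Unc13a 7. The first 30 bases of each are printed so that the measured stretch of each paralog can be compared.
Syt2 probe, mm9 chr1:136645935-136645994 (plus strand): agagtttgagaacccagcatggagaagctg
Syt1 probe, mm9 chr10:107935310-107935369 (minus strand): aggggctttcctacttaagggaccaagtcc
Vamp1 probe, mm9 chr6:125171818-125171877 (plus strand): ttaggtgtagttggcattcgttcttctggg
Vamp2 probe, mm9 chr11:68905527-68905586 (plus strand): agtgtgagagagaaagcaagctatttcctt
Unc13c probe, mm9 chr9:73781310-73781369 (minus strand): ggccagtctctttaagagcttgattttagc
Unc13a probe, mm9 chr8:74154416-74154475 (minus strand): agttcgccaccaaatccaaaaacaacagct
Stx1a probe, mm9 chr5:135526477-135526536 (plus strand): agcaggccatagtcctaacaggcatggtaa

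Promoter sequences were given by RefSeq on GRCm38.p6 for 31 of the 40 members, in 39 windows. Each window ran from 250 bases before to 50 after the start of the gene. The 9 members without a window were Syn3, Syt4, Syt5, Syt7, Doc2a, Doc2b, Snap25, Vamp2 and Rims2. The windows below belong to 3 genes that were high in mouse 11 (Syt2, Vamp1 and Unc13c) and 3 that were low (Syt1, Unc13a and Stx1a). Capitals mark the GC box GGGCGG on either strand, the site of SP-family factors.
Syt2, GRCm38.p6 chr1:134646362-134646661 (plus strand): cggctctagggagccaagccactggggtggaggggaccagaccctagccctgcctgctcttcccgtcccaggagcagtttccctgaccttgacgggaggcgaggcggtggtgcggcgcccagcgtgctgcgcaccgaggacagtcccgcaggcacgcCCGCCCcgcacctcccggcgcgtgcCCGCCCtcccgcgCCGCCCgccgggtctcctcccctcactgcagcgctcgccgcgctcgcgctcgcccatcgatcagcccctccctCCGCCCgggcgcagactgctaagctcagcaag
Vamp1, GRCm38.p6 chr6:125215331-125215630 (plus strand): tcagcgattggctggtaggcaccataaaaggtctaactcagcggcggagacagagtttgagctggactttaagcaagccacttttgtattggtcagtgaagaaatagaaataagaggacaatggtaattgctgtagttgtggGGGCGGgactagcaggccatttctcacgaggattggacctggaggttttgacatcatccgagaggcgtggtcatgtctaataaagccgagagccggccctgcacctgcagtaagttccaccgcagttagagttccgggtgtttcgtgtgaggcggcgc
Unc13c, GRCm38.p6 chr9:73968988-73969287 (minus strand): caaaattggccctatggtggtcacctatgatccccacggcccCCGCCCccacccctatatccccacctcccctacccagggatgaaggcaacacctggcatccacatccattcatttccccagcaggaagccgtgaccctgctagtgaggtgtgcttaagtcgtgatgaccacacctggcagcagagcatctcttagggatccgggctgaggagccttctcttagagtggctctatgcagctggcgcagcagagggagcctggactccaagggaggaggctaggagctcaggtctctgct
Syt1, GRCm38.p6 chr10:109010926-109011225 (minus strand): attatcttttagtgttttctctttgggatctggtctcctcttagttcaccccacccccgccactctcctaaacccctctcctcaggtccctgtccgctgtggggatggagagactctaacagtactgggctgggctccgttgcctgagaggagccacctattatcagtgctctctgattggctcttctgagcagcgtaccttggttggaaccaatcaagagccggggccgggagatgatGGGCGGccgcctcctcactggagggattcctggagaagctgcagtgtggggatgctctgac
Unc13a, GRCm38.p6 chr8:71671708-71672007 (minus strand): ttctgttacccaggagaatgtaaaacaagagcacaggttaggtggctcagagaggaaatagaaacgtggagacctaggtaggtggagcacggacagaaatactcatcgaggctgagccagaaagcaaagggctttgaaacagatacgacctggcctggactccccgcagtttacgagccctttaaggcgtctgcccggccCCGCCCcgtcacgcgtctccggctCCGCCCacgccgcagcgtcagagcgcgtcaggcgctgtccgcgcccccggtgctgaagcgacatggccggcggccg
Stx1a, GRCm38.p6 chr5:135023232-135023531 (plus strand): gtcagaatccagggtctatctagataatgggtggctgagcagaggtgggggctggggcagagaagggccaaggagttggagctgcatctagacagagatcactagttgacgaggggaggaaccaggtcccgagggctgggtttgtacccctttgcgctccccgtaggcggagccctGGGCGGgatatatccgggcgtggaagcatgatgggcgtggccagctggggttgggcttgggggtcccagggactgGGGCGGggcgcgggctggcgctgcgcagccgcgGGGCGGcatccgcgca

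The GC box occurred in 24 of the 39 member windows (61.5%), beside 35.7% of all 32851 windows, and the median GC content was 62% in member windows and 52.7% in all windows. Among the windows shown, high and low genes alike held it: 4 copies for Syt2, 1 for Vamp1, 1 for Unc13c, 1 for Syt1, 2 for Unc13a and 3 for Stx1a. The E-box CACGTG, the motif of CLOCK and BMAL1, was in 5 member windows (Cplx3, Napa, Nsf, Sv2b and Unc13b; 12.8%), beside 7.15% of all windows. The cAMP response element TGACGTCA was in 2 (Napa and Syn1), beside 1.79%, and the D-box TTATGTAA in 0, beside 0.938%. All motifs were searched on both strands, and the E-box and the cAMP response element share the core ACGT. Doc2b and the other members without a window were not searched for any motif. A match is a description of these letters only.

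Of the 61 member probes on the array, 59 passed the filter on dim probes, and 27 members had 1 probe. In 13 members with more than 1 passing probe the sign of the mouse 11 difference was shared by all probes in 9 and not in Syn3, Syt3, Rims1 and Pclo. For Pclo the 4 probes gave -0.92, -0.24, 0.34 and 0.59 and their mean -0.06, and for Rims1 0.26 and -0.23. The second Sv2c probe that passed gave 2.52, against 0.78 for the one used, and the mean of all probes gave 1.65. The brightest Cplx2 probe is placed at mm9 chr13:108816800-108816859, while 3 other Cplx2 probes lie near chr13:54485200-54485259. The other 4 Cplx2 probes gave -0.69 to -0.47 in mouse 11, against -0.34 for the brightest.

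Related genes outside the 40 were described in 4 lists by the same fit. The lists held 23 SNARE partners and regulators, 16 active zone scaffold genes, 15 measured genes of vesicle membrane and filling and 20 endocytosis genes. The endocytosis genes share Syt11 with the members. In this order limma's F test called 0 in each, with 1, 3, 3 and 3 at an unadjusted p under 0.05, beside 10.6% of all genes. Without the library labelled CT12 mouse 11 it called 0 in each, with 2, 2, 3 and 1 at an unadjusted p under 0.05, beside 12.1%. In mouse 11 the counts below and above the other 11 libraries were 9 and 9, 7 and 5, 9 and 4, and 6 and 3, beside 31.9% and 23.9% of all genes, and the medians were -0.03, -0.12, -0.25 and -0.19, beside -0.08 over all genes and -0.46 over the members. The smallest F test p values were those of Vamp3, Syt9 and Snap29 among SNARE partners, and of Rab3d, Ppfia2 (a liprin) and Rab27b among scaffold genes. Among genes of vesicle membrane and filling they were those of Slc17a8 (VGLUT3), Synpr (synaptoporin) and Slc6a17, and among endocytosis genes those of Ap2b1 (an adaptor of clathrin), Amph (amphiphysin) and Dnm3 (a dynamin).

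Slc17a8 had means of -1.37 at CT0, -1.36 at CT6, -0.18 at CT12 and -1.48 at CT18 (limma adjusted p = 0.255, and 0.328 without mouse 11). Its mouse 11 level was 0.22, against -1.74 to 0.15 in the other 11 libraries. Slc18a3, the vesicular carrier of acetylcholine, differed most in that library, with 1.53, against -4.41 to -2.70, and Slc18a2, the carrier of monoamines, had 1.21, against -1.57 to -0.91. Syt17 had -3.23, against -0.40 to 0.91, and Syt9, a further calcium sensor, had 0.59, against -2.31 to -0.67. Rimbp2, a link between RIM and calcium channels, was below (-5.21, against -3.35 to -2.20), and Unc13d, which encodes Munc13-4 of cytotoxic lymphocytes, above (-0.24, against -3.50 to -2.53). Synj1, a lipid phosphatase of vesicle uncoating, was below (3.45, against at least 4.58), and Dnm3 above (1.87, against 0.83 to 1.39).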

How the data were processed

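RNA of each mouse was labelled with Cy3 and measured on its own 1-colour Agilent array. Quantification used Agilent Feature Extraction 10.7.3.1, per the file headers, and its processed signal is an intensity from which background had been subtracted. Coordinates of probes are on mm9, per the file headers. A deposited table of log2 values, whose making is not given in the sources used here, served as an alternative. The deposited files also gave, per the file headers, flags for each spot (other, 0 or 1) and a local background intensity, and both were read.

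The log2 signal was set relative to the 75th percentile of each array, outlier spots were dropped and repeated spots averaged. Of 55681 probes, 33965 were well above background on all 3 arrays of some time, and the brightest stood for each of 24089 genes. With limma 3.58.1 in R 4.3.3, 4 means were fitted to all genes, with the moderated F test, a 24-hour cosine and 6 pairs, each adjusted over all genes (Benjamini-Hochberg). The procedure was tested on simulated data.

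Of the 3 slides, each held 1 array of every time, always in the same position for that time. Position, hours in darkness and circadian time therefore cannot be told apart. The labels give each mouse a number and nothing on litter or housing, and p values measure the spread between these animals. The number of arrays limits the precision. The members and lists were chosen with earlier results of these data known. By the rule for named genes every member is named, with per-array values for the 8 members of smallest F test p and 14 paralogs with the largest mouse 11 difference, and each related list gives 3 genes by F test p and 2 by mouse 11 difference. Stx1a is given in full as well, chosen after its values were seen. The alternatives were other scalings (quantile, median), normexp, the deposited log2 values, different filters, different ways to summarise probes, a slide block, another variance model and leaving out each library.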

Additional observations from a re-analysis of the deposited data

How the results depend on the processing

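The number of members called was as reported in 137 of 168 repeats, and the number outside the other libraries in CT12 mouse 11 was within 1.5 times of that reported in 35 of 36. The 168 repeats include tests with 0 members as reported: the cosine, CT12 against CT0, CT6 against CT0, CT12 against CT6 and CT18 against CT0. At most 0.0664% of all genes were called in these, so 0 members again says little about how firm the Doc2b calls are. Without 1 library, the F test kept its Doc2b call in 1 of 12 repeats, and CT18 against CT12 in 4 of 12. The members' median in CT12 against CT0 and in CT18 against CT6 moved by less than the spread between slides in 35 of 44 repeats. That count includes repeats that could not move a median, namely slide as a block and leaving out a library of neither time. The spread was 0.32 for CT12 against CT0, where slide 1 holds CT12 mouse 11, and 0.015 for CT18 against CT6. The count therefore says little about how firm the medians are. The F test, 1 member with all libraries, called 0 with median centring, with no filter on dim probes and with slide as a block, and 0 to 1 when 1 library was left out. Between CT18 and CT12, with 1 member as reported, 0 were called with median centring or no filter, and 0 to 9 without 1 library. Between CT18 and CT6, with 0 as reported, 1 was called with quantile normalization, normexp, the deposited table, probes well above background on all 12 arrays, or the intensity trend with robust variance, and 0 to 1 without 1 library. In each of these Doc2b was the gene gained or lost, apart from the 9 without CT12 mouse 12, beside 5.16% of all genes. The shares of all genes called with the other scalings, filters and the slide block are not given here. These counts therefore cannot be set against all genes. Its F test adjusted p ranged from 0.0225 to 0.563 over 10 fits of all 12 libraries, the reported one included, with 7 calling it, and was 0.0996 with slide as a block. Its difference between CT18 and CT12 ranged from 0.87 to 0.96, with 8 of those 10 fits calling it. The members' median between CT18 and CT6 was -0.14 as reported. It was -0.039 with median centring, -0.118 with normexp, -0.119 with the mean of all probes of a gene, -0.111 within slide 1 and -0.0922 within slide 2, and -0.154 to -0.0925 without 1 library. Between CT12 and CT0 the members' median was 0.0916 with median centring, against -0.127 as reported, and within slide 1 it was -0.52, the slide that holds CT12 mouse 11. In that library 14 members lay below the others with median centring, against 22 as reported, and 39 of 40 kept the sign of their difference with the deposited table, Snap25 being the exception, while all 40 kept it with quantile normalization, median centring and normexp. The causes were not tested. By mouse number no paired analysis was possible because the times share no numbers in the labels, and the slides, which hold 1 mouse of each time, were used as the block instead.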
